A study of Homo sapiens with 6 samples.

Results

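The transcripts described here encode 10 receptor tyrosine kinases that are often altered or highly expressed in glioblastoma: EGFR, ERBB2, PDGFRA, PDGFRB, MET, FGFR1, AXL, EPHA2, DDR2 and ROR2. They were chosen by gene symbol, and all 10 were found among the 35750 genes of the deposited table. RNA came from T98G, an established human glioblastoma cell line grown in serum-containing medium, in 3 libraries labelled shControl and 3 labelled shSLC1A5. The second group carried a short hairpin RNA against SLC1A5, a carrier of glutamine and other neutral amino acids, and the labels state no hairpin sequence, vector or clone for either group. Poly(A) RNA was sequenced, and libraries held 59327548 to 70802167 counts. Whether the 3 libraries of a group stem from separate cultures is not labelled, and the spread behind each p-value may therefore be technical.

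A receptor tyrosine kinase spans the cell membrane once. Ligand binding outside the cell brings receptors together, the kinase part inside phosphorylates tyrosines, and adaptor proteins dock there to start RAS, PI3K and STAT signalling. In glioblastoma EGFR, PDGFRA and MET are known for gene amplification or rearrangement, while AXL, EPHA2 and DDR2 are known for links to invasion and to mesenchymal tumour states. Receptor output is also set by removal from the surface, by shedding and by the supply of ligand, which the transcript level of a receptor does not show.

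The targeted transcript was checked first. SLC1A5 (chromosome 19, 46774883 to 46788594) was at 95.8 ± 1.15 FPKM in shControl and 87.9 ± 0.407 FPKM in shSLC1A5 (SD, n = 3), where FPKM are fragments normalized to gene model length and library size. Its log2 fold change was -0.14 in edgeR's quasi-likelihood test, or -0.35 in a GC-adjusted fit, which removes each library's trend with transcript GC content and length. That difference was small, so directions are given by library label, shSLC1A5 against shControl. Among 9 glioma line markers VIM and CD44 were abundant, whereas GFAP, SOX2, S100B and NES were at or under 0.206 FPKM in each library. Markers of other cell types were present in the shSLC1A5 libraries. Summed FPKM of 6 B cell markers was 0.0269 to 0.0835 in shControl and 3.33 to 6.61 in shSLC1A5, that of 5 endothelial markers 0.396 to 0.572 and 1.24 to 1.33, and shSLC1A5 replicate 1 also held 50.9 FPKM over 6 neutrophil markers against 0.175 to 0.516 elsewhere. Nearly all of that neutrophil sum was S100A8, at 32.2 FPKM, and S100A9, at 18.1 FPKM, while MPO was at 0 FPKM.

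The bases just upstream of the RefSeq start sites are shown for AXL, MET and EGFR, whose transcripts, like that of DDR2, were lower in shSLC1A5. They are also shown for EPHA2, whose uncorrected level was close in both groups. RefSeq promoter windows (GRCh38.p14) matched 9 of the 10 genes, with FGFR1 unmatched, and where a gene had several windows the most upstream one was taken. Each line gives the 250 bases before the start, 5′ to 3′ on the strand of the gene. Capitals mark GC boxes, the motif GGGCGG searched on both strands, a binding motif of Sp1-type factors.
AXL, chr19:41218973-41219222, plus strand: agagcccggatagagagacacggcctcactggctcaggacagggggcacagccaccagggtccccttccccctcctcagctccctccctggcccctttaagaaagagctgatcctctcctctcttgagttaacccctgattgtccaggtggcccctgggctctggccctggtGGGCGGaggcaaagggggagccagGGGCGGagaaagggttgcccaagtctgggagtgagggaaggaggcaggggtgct
MET, chr7:116671946-116672195, plus strand: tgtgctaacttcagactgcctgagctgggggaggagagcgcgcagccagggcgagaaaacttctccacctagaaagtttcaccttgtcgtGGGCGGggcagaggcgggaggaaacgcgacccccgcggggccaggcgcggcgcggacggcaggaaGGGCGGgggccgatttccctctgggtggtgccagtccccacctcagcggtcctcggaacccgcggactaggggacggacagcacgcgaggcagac
EGFR, chr7:55018767-55019016, plus strand: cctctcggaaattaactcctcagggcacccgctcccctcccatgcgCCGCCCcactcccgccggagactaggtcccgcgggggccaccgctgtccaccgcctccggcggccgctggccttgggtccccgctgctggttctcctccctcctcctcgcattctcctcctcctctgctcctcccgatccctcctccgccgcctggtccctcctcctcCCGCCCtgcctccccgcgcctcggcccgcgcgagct
EPHA2, chr1:16156070-16156319, minus strand: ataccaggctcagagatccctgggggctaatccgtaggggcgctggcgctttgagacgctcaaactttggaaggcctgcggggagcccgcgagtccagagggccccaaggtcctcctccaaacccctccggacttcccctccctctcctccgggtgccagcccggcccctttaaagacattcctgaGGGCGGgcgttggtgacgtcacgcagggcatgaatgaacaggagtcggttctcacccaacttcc
GC boxes numbered 2 upstream of AXL, 2 upstream of MET, 2 upstream of EGFR and 1 upstream of EPHA2. Of all 35116 windows of this length, 42.6% held at least 1, so a GC box is a common feature of promoters. The GC content of the 250 bases was 64.4% for AXL, 68.4% for MET, 73.6% for EGFR and 63.2% for EPHA2, against a median of 58.0% over all windows. Another motif, the AP-1 element TGANTCA, was found in 0 of these 4 stretches and in 6.6% of all windows, and the TEAD element GGAATG was found once, upstream of EPHA2, and in 11.9% of all windows. Of the windows not shown, that of DDR2 held 0 GC boxes at a GC content of 40.0%. Those of ERBB2 and PDGFRA held 0 GC boxes and 1 AP-1 element each. PDGFRB and ROR2 had 1 and 4 GC boxes and 0 AP-1 elements. These are matches of letters and show no binding.

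In control cells the receptor transcripts spanned a wide range of FPKM. That scale divides by gene model length, so levels and ranks between genes depend on the length the authors used for each. Those lengths were not always that of the longest transcript. In shControl 1, EGFR had 35840 counts and EPHA2 11493, at 40.0 and 38.7 FPKM, while their longest transcripts have 9821 and 3964 bases. AXL was highest at 77.3 ± 0.858 FPKM (SD, n = 3). EGFR at 41.2 ± 1.27 and EPHA2 at 40.6 ± 1.68 followed and overlapped each other in shControl. MET was next at 33.8 ± 1.68, then PDGFRB at 21.3 ± 0.265, DDR2 at 10.4 ± 0.501, FGFR1 at 4.56 ± 0.103 and ERBB2 at 2.82 ± 0.152 FPKM, and none of these overlapped its neighbours. PDGFRA at 0.499 ± 0.0718 FPKM and ROR2 at 0.0269 ± 0.00735 FPKM lay under the minimum mean of 1 FPKM used for testing, so 8 of the 10 receptors were tested. In shSLC1A5 the order was the same except that EPHA2, at 40.0 ± 1.32 FPKM, lay above EGFR, at 37.2 ± 0.810 FPKM, without overlap. That change of order rests on FPKM without GC adjustment and on the gene lengths used. With other lengths EGFR and EPHA2 need not change places. In the GC-adjusted fit EPHA2 had the larger fall, with log2 fold changes of -0.24 for EPHA2 and -0.14 for EGFR.

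**Figure D1:**
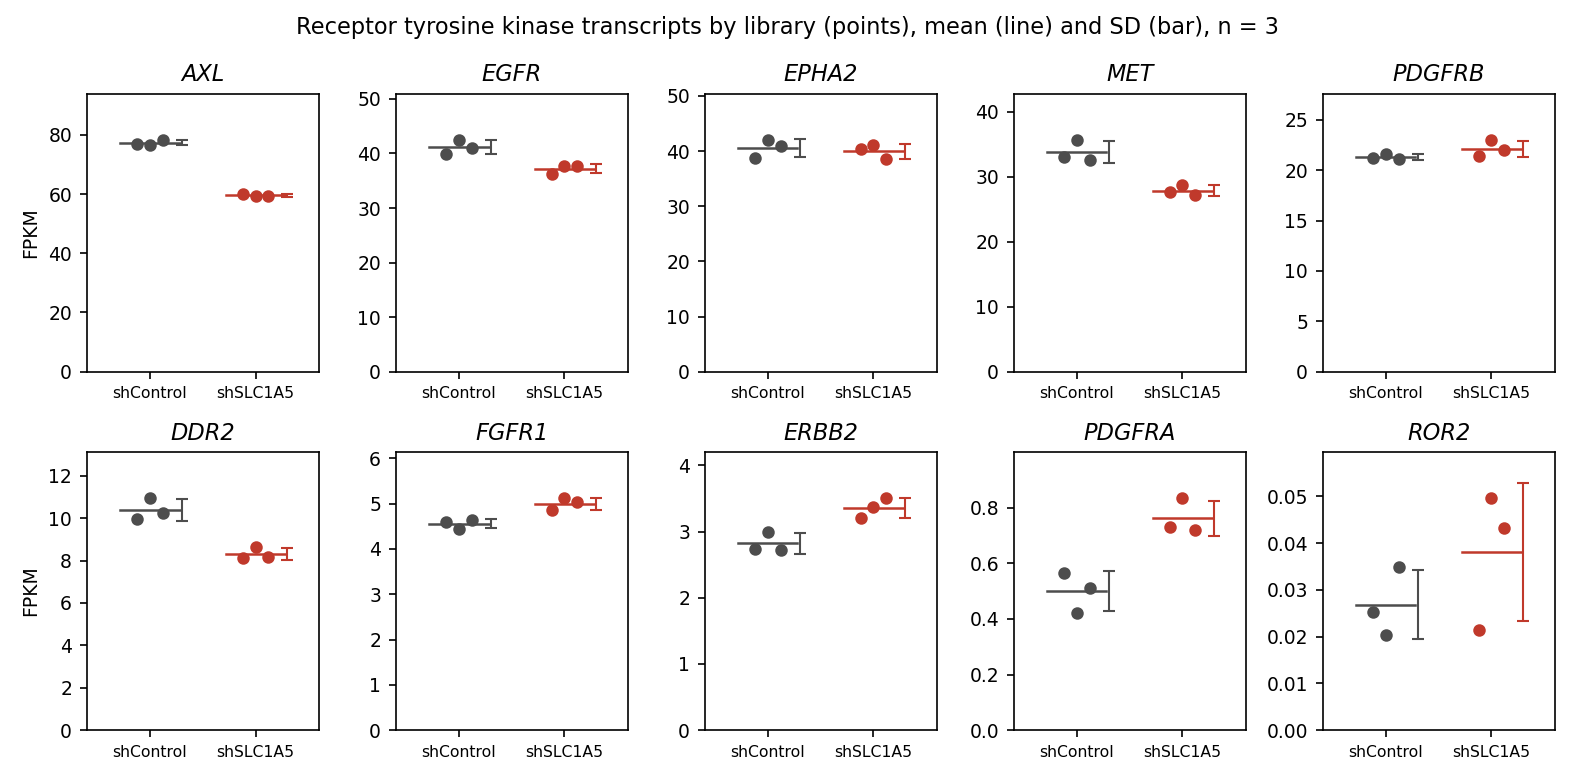
FPKM of each of the 10 receptors in the 3 shControl and 3 shSLC1A5 libraries, on axes that start at 0. Points are libraries, horizontal lines are means and vertical bars are SD (n = 3); AXL, MET, EGFR and DDR2 are lower in all 3 shSLC1A5 libraries, while ERBB2, FGFR1 and PDGFRA are higher in all 3.

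Of the 8 tested receptors, 4 fell (AXL, DDR2, MET and EGFR), 2 rose (ERBB2 and FGFR1) and 2 did not pass the test (PDGFRB and EPHA2), at an adjusted p under 0.05 by edgeR with Benjamini-Hochberg adjustment over 11841 genes. Over all genes tested, 19.0% were called lower and 20.2% higher, or 39.2% in either direction. The median log2 fold change of the 8 receptors was -0.10, beside -0.01 over all genes tested. FPKM of both groups were fully apart for 6 of the 8, beside 49.6% of all genes tested, of which 22.3% were lower and 27.3% higher. When single libraries were omitted 4 receptors were always lower, and 2 were higher without shControl 3 or shSLC1A5 1 but only 1, ERBB2, without any of the other 4.

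AXL, a receptor for the vitamin K-dependent ligand GAS6, had the largest fall. Its levels were 77.0, 76.7 and 78.3 FPKM in shControl and 60.0, 59.2 and 59.5 FPKM in shSLC1A5. The lowest control library therefore lay well above the highest shSLC1A5 library, and the spread within each group was small beside the gap. In the edgeR fit the log2 fold change was -0.39 (SE 0.019) with an adjusted p = 1.28e-07, a level at 0.763 of control with a 95% confidence interval of 0.742 to 0.786. With GC adjustment the fall was larger, with a log2 fold change of -0.47 (SE 0.020). A two-sided exact permutation test on FPKM gave p = 0.1, which is the least possible with 3 against 3, and the same p was found for EGFR, MET, DDR2, ERBB2, FGFR1 and PDGFRA.

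DDR2, a receptor for fibrillar collagen, was at 9.96, 10.9 and 10.2 FPKM in shControl. In shSLC1A5 it was at 8.14, 8.63 and 8.15 FPKM, below every control value. By edgeR the log2 fold change was -0.33 (SE 0.039) at an adjusted p = 6.86e-05, or 0.793 of control with an interval of 0.748 to 0.842. MET, the receptor for hepatocyte growth factor, was at 33.0, 35.7 and 32.6 FPKM in shControl and 27.6, 28.8 and 27.2 FPKM in shSLC1A5. These groups also did not overlap, and MET reached 0.818 of control, a fold change of -0.29 on the log2 scale (SE 0.034) with an edgeR adjusted p = 7.52e-05.

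EGFR, the receptor for epidermal growth factor and its relatives, fell less. It was at 40.0, 42.5 and 41.0 FPKM in shControl and 36.3, 37.6 and 37.7 FPKM in shSLC1A5, again without overlap. By edgeR the log2 fold change was -0.16 (SE 0.023) with an adjusted p = 3.02e-04, a level at 0.896 of control with an interval of 0.866 to 0.928. In the GC-adjusted fit DDR2, MET and EGFR were at -0.28, -0.23 and -0.14 on the log2 scale, and each kept its call. AXL, DDR2, MET and EGFR were called lower in each of the 16 alternative fits made for each of them.

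ERBB2, which has no known ligand of its own and pairs with other ERBB receptors, went the other way. It was at 2.74, 3.00 and 2.72 FPKM in shControl and 3.20, 3.38 and 3.50 FPKM in shSLC1A5, with no overlap. It rose by 0.24 on the log2 scale (SE 0.054) with an edgeR adjusted p = 0.00495, but after GC adjustment it stood at 0.08 and was no longer called, at an adjusted p = 0.272. The strand setting of the counting is not given in the sources used here, and on the opposite strand ERBB2 overlaps MIEN1 and PGAP3, so its count is uncertain. MIEN1 had a log2 fold change of 0.02 (adjusted p = 0.857 by edgeR), and PGAP3 rose by 0.41 (adjusted p = 0.0236), or 0.22 with GC adjustment (adjusted p = 0.230), and its call also ended when any of 4 libraries was omitted (adjusted p from 0.0550 to 0.0922). Since EGFR fell and ERBB2 rose, the ratio of EGFR to ERBB2 FPKM went from 14.6 ± 0.436 to 11.1 ± 0.285 (SD, n = 3). The size of that ratio depends on the gene lengths used.

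FGFR1, a receptor for fibroblast growth factors, was at 4.59, 4.44 and 4.65 FPKM in shControl and 4.86, 5.12 and 5.03 FPKM in shSLC1A5. The groups were apart by a small margin, and the log2 fold change was 0.12 (SE 0.037) with an edgeR adjusted p = 0.0251. GC adjustment ended the call (0.09, adjusted p = 0.124), as did limma (adjusted p = 0.0570 and 0.0547 with pseudocounts of 1 and 0.1 FPKM) and the fit with no filter on low values (adjusted p = 0.0538). It also ended when any of 4 libraries was omitted (shControl 1, shControl 2, shSLC1A5 2 or shSLC1A5 3), where the adjusted p ran between 0.0593 and 0.107. FGFR1 overlaps LETM2 on the opposite strand, a gene at a mean of 0.836 FPKM in shControl and 0.740 FPKM in shSLC1A5.

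PDGFRB and EPHA2 did not pass the test, and both calls depended on GC adjustment. PDGFRB, the receptor for PDGF-BB and PDGF-DD, was at 21.2, 21.6 and 21.1 FPKM in shControl and 21.4, 23.0 and 22.0 FPKM in shSLC1A5, which overlap. Its log2 fold change was 0.04 (adjusted p = 0.238 by edgeR) and turned to -0.11 with GC adjustment, where it was called lower (adjusted p = 0.00851). EPHA2, a receptor for ephrin-A ligands on neighbouring cells, was at 38.7, 42.0 and 41.0 FPKM in shControl and 40.3, 41.1 and 38.5 FPKM in shSLC1A5, with overlapping groups. Its log2 fold change was -0.03 (adjusted p = 0.439 by edgeR), with an interval of the fold from 0.928 to 1.03, and became -0.24 with GC adjustment (adjusted p = 1.43e-04). The longest EPHA2 transcript has a GC content of 60.3% and that of PDGFRB 57.6%.

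**Figure D2:**
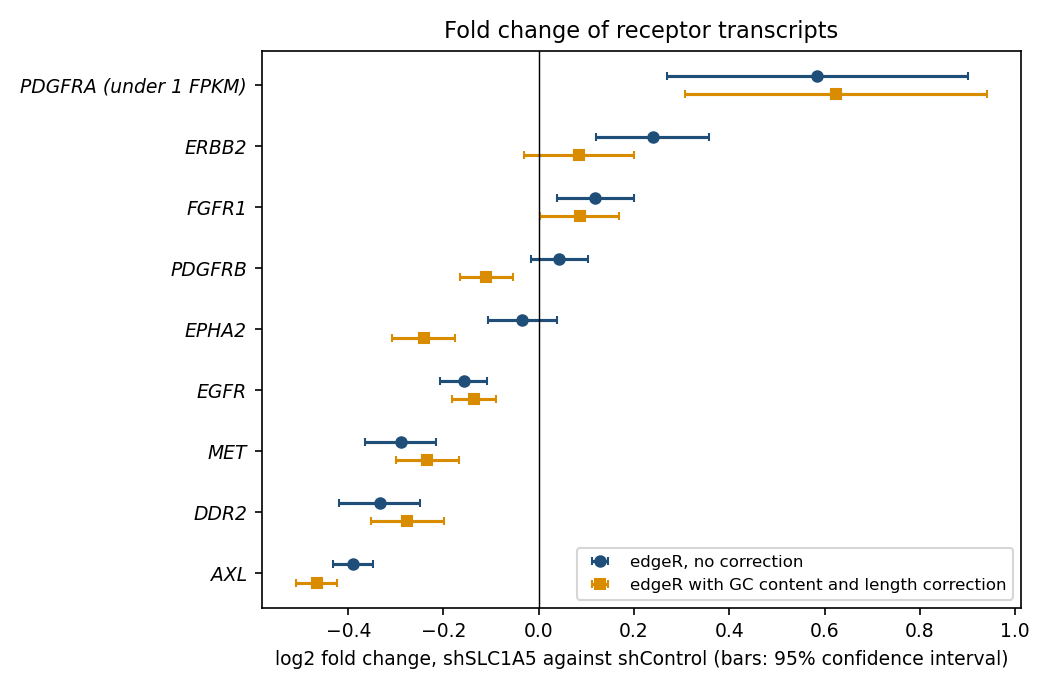
Log2 fold change (horizontal axis) of 9 receptors, shSLC1A5 against shControl, with 95% confidence intervals, from edgeR without (circles) and with (squares) GC adjustment. AXL, DDR2, MET and EGFR lie below 0 in both fits, and ERBB2 and FGFR1 move toward 0 with GC adjustment. With it PDGFRB moves below 0, and EPHA2, just below 0 without it, moves further down. ROR2 is not drawn because its interval, -0.75 to 1.76, is far wider, and PDGFRA comes from the fit without the filter on low values.

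Since fold changes over all genes rose with transcript GC content (Spearman rho 0.49 across genes, which are not independent replicates), each receptor can be read against genes of like GC content. In the decile with a median GC content of 41.9% the median log2 fold change of all tested genes was -0.08 with quartiles of -0.17 and 0.01, and DDR2 (41.6%) and MET (42.4%) lay below the lower quartile. In the decile at 52.6% the quartiles were -0.08 and 0.14, and AXL (53.9%) lay below them. In the decile at 59.3% the quartiles were 0.05 and 0.28, and EPHA2 lay below that range at -0.03. In the decile at 55.9% the quartiles were -0.03 and 0.21, and ERBB2 (57.5%) lay just above them while PDGFRB lay within them. EGFR (47.5%) lay just below the lower quartile of its decile, -0.15, and FGFR1 (51.3%) lay within the quartiles of the decile at 52.6%. With GC adjustment 6 of the 8 receptors were called lower and 0 higher, beside 14.7% and 11.3% of all genes tested and 26.0% in either direction, and 4 kept their call and direction, beside 2329 of the 11841 genes tested (19.7%). The part of GC content in these results was not tested further.

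**Figure D3:**
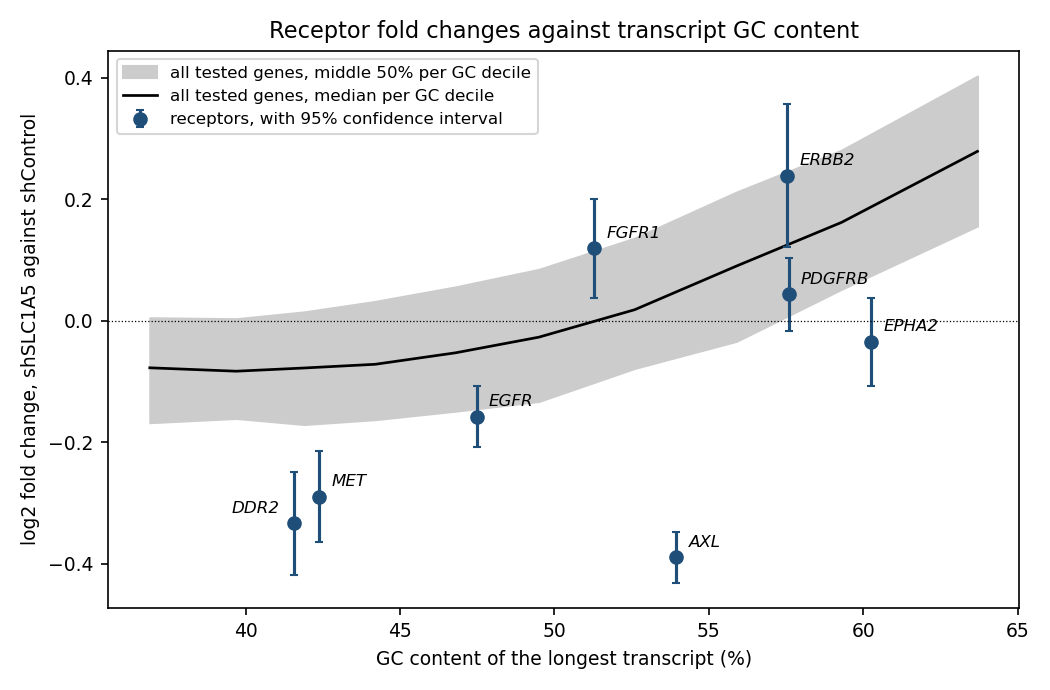
Log2 fold change (vertical axis) of the 8 tested receptors with 95% confidence intervals against the GC content of the longest transcript (horizontal axis). The grey band and black line give the middle 50% and the median of all 11841 tested genes in deciles of GC content; AXL, MET, DDR2 and EPHA2 lie clearly below the band, EGFR just below it, PDGFRB inside it, and ERBB2 and FGFR1 near its upper edge.

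The receptors under the testing minimum were read from a fit without the filter on low values, in which 10.1% of 34207 genes were called. PDGFRA, the receptor for most PDGF forms, was at 0.564, 0.422 and 0.511 FPKM in shControl and 0.731, 0.833 and 0.720 FPKM in shSLC1A5. All 3 shSLC1A5 libraries were above all 3 controls, from 389, 288 and 328 counts to 562, 606 and 518. In that edgeR fit PDGFRA rose by 0.58 on the log2 scale (SE 0.13) with an adjusted p = 0.0348, or by 0.62 with GC adjustment (adjusted p = 0.0293). The call ended when any of 5 libraries, all but shControl 1, was omitted (adjusted p from 0.0740 to 0.118), with limma (adjusted p = 0.138 and 0.124), with a replicate block (adjusted p = 0.132) and with block and GC adjustment together (adjusted p = 0.107). Its gain, from 0.499 to 0.761 FPKM, was of the size seen for the endothelial markers VWF and CDH5. VWF went from 0.0218 to 0.359 FPKM, and CDH5 from 0 counts in each control to 118, 100 and 98. Another endothelial marker, TIE1, went the other way, from 0.393 to 0.288 FPKM with overlapping groups. The part of other cells in the PDGFRA gain was not tested. ROR2, a receptor for WNT5A, had 11, 9 and 14 counts in shControl and 11, 23 and 20 in shSLC1A5, with overlapping groups and an adjusted p = 0.617 by edgeR, and a difference was not detected. In bulk RNA, fewer cells with a transcript and less transcript per cell cannot be told apart.

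The 10 receptors made up most of the summed receptor tyrosine kinase FPKM of this line. Of 58 such receptors 54 were listed, and their summed FPKM was 291.7, 302.2 and 296.4 in shControl and 271.4, 276.5 and 271.6 in shSLC1A5. The share of the 10 in that sum was 78.1%, 78.5% and 78.3% in shControl and 74.6%, 75.2% and 74.5% in shSLC1A5, lower in all 3 libraries. AXL alone gave 26.1% of the sum in shControl and 21.8% in shSLC1A5. MET went from 11.4% to 10.2% and EGFR from 13.9% to 13.6%, while EPHA2 went from 13.7% to 14.6% and PDGFRB from 7.18% to 8.11%. These shares are a description with no test and depend on the length used for each gene. They also rest on FPKM without GC adjustment, and with that adjustment EPHA2 and PDGFRB were called lower.

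**Figure D4:**
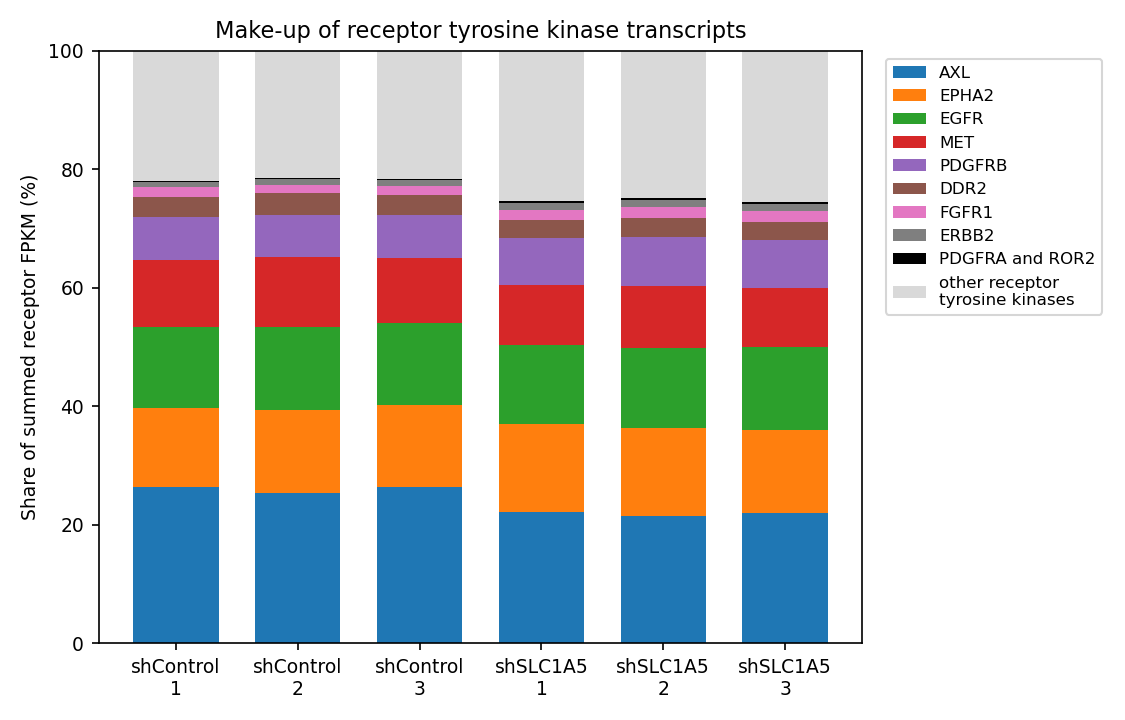
Share of the summed FPKM of 54 receptor tyrosine kinases (vertical axis, percent) in each of the 6 libraries. Each colour is 1 receptor, black joins PDGFRA and ROR2, and grey is the other 44 receptors; the AXL segment is 25.4% to 26.4% in shControl and 21.4% to 22.1% in shSLC1A5.

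Among the other receptor tyrosine kinases, 12 of the 44 listed were tested, of which 3 rose, 2 fell and 7 did not pass the test, with a median log2 fold change of 0.06. The share called was 41.7%, near the 39.2% of all genes tested. DDR1, the other collagen receptor, rose from 4.20 ± 0.226 to 5.81 ± 0.437 FPKM (SD, n = 3), with a log2 fold change of 0.46 (adjusted p = 2.03e-04 by edgeR), or 0.21 with GC adjustment (adjusted p = 0.0301). Its relative DDR2 fell, as given above, and the difference between the pair was not tested. EPHB4, a receptor for ephrin-B2, rose by 0.29 and PTK7, a pseudokinase of WNT signalling, rose by 0.20, but both calls were lost with GC adjustment (0.06 and 0.02, adjusted p = 0.407 and 0.655). STYK1 was at -0.52 (adjusted p = 0.0108 by edgeR), or -0.46 with GC adjustment, and omitting shControl replicate 1 ended the call (adjusted p = 0.0512). ROR1, the closest relative of ROR2, was at -0.31 (adjusted p = 0.0278 by edgeR), or -0.26 with the call lost after GC adjustment (adjusted p = 0.0689), and omitting any of 4 libraries (shControl 1, shControl 2, shSLC1A5 1 or shSLC1A5 2) also ended the call, at an adjusted p between 0.0584 and 0.118. EPHB2 was at 10.9 and 11.2 FPKM and was not called, while PTK7 was at 10.0 and 11.6 FPKM, and these were the highest means outside the 10.

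Ligands of the receptors moved in both directions. Of 30 listed, 14 were tested: 3 rose, 4 fell and 7 did not pass the test, with a median log2 fold change of 0.02. That is 50% called, beside 39.2% of all genes tested. HBEGF, a ligand of EGFR, fell from 8.15 ± 0.0183 to 4.70 ± 0.0688 FPKM (SD, n = 3), by 0.81 on the log2 scale (adjusted p = 1.68e-06 by edgeR). NRG1, which binds the ERBB partners of ERBB2, fell from 8.17 ± 0.245 to 5.57 ± 0.0406 FPKM, by 0.56 on the log2 scale (adjusted p = 2.03e-07 by edgeR). Those partners were near the floor, with ERBB3 at 0.00933 FPKM in shControl and 0.0125 FPKM in shSLC1A5. ERBB4 was at 0.00107 and 0.00227 FPKM. EGF itself was at 1.69 and 1.70 FPKM and was not called. Both HBEGF and NRG1 kept their calls with GC adjustment, at -0.80 and -0.52.

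The PDGF ligands that were called moved in opposite directions. PDGFD, a ligand of PDGFRB, rose from 13.6 ± 0.464 to 16.6 ± 0.203 FPKM (SD, n = 3; log2 fold change 0.27, adjusted p = 2.76e-04 by edgeR), and PDGFC, a ligand of PDGFRA, fell from 5.83 ± 0.250 to 4.88 ± 0.0983 FPKM (log2 fold change -0.27, adjusted p = 0.00144). FGF2, a ligand of FGFR1, was at 57.4 ± 1.25 FPKM in shControl and fell to 50.3 ± 0.922 FPKM, by 0.21 on the log2 scale. COL1A2, a chain of the fibrillar collagen that DDR2 binds, rose from 56.5 to 63.4 FPKM, by 0.15 on the log2 scale. COL1A1, the other chain of that collagen, was at only 0.366 FPKM in shControl and 0.515 FPKM in shSLC1A5. COL3A1, another fibrillar collagen gene of the list, was at 0.0445 and 0.0433 FPKM. Both lay under the testing minimum and were not called in the fit with no filter. WNT5A, the ligand of ROR2, rose from 39.3 ± 1.07 to 46.9 ± 1.10 FPKM, by 0.24. The calls of PDGFD, PDGFC, FGF2, COL1A2 and WNT5A were kept with GC adjustment.

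The ligand of AXL and those of EPHA2 and MET did not pass the uncorrected test. GAS6 was at 5.11 ± 0.226 and 5.32 ± 0.220 FPKM (SD, n = 3; adjusted p = 0.553 by edgeR), and with GC adjustment it was called lower at -0.18 (adjusted p = 0.0335). PDGFA was at 3.30 and 3.67 FPKM with an adjusted p = 0.185, and NRG2 at 2.25 and 2.45 FPKM with an adjusted p = 0.435. The ephrins EFNA1, EFNA4 and EFNA5, with means of 1.78, 4.003 and 2.53 FPKM in shControl and 1.78, 5.11 and 2.43 FPKM in shSLC1A5, were not called. EFNA4, with a log2 fold change of 0.34 (adjusted p = 0.106 by edgeR), was called when shControl 3 was omitted (0.48, adjusted p = 0.0420). EFNA3, under the testing minimum, was at 0.562 and 1.23 FPKM with groups apart (log2 fold change 1.12, adjusted p = 0.0625 by edgeR with no filter), and was called by DESeq2 (adjusted p = 3.32e-04) and without shControl 3 (1.49, adjusted p = 0.0195). HGF, the ligand of MET, was at 0.00177 FPKM in shControl and 0.0101 FPKM in shSLC1A5.

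Adaptors and proximal effectors had 9 of 27 tested genes higher, 3 lower and 15 not called, with a median log2 fold change of -0.01, but only 2 were higher and 2 lower with GC adjustment. Without that adjustment 44.4% were called, near the 39.2% of all genes tested. Over all genes 11.3% were higher and 14.7% lower with it. AKT1 and AKT2, kinases downstream of PI3K, rose by 0.29 and 0.20 on the log2 scale, and SHC1, an adaptor, rose from 49.0 to 54.4 FPKM; with GC adjustment they were at 0.04, 0.03 and 0.03 and not called. NRAS, a small GTPase, was at 36.5 and 33.8 FPKM with a log2 fold change of -0.12, and FRS2, the docking adaptor of FGF receptors, was at -0.17. Both calls were lost with GC adjustment (adjusted p = 0.209 and 0.152), and FRS2 was also not called when shControl 2, shSLC1A5 2 or shSLC1A5 3 was omitted (adjusted p between 0.0505 and 0.0745). PIK3R3, a regulatory subunit of PI3K, fell by 0.23, or by 0.20 with GC adjustment. HRAS, a small GTPase like NRAS, was called higher at 0.15 (adjusted p = 0.0321 by edgeR) but lower with GC adjustment at -0.16 (adjusted p = 0.0371), and its uncorrected call ended when any of 4 libraries was omitted (adjusted p from 0.0557 to 0.101) and with the block (adjusted p = 0.0529).

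Genes of receptor turnover and inhibition had 3 of 23 tested genes higher, 6 lower and 14 not called, with a median of -0.06. The share called, 39.1%, was near that of all genes tested, 39.2%. SH3KBP1, a CBL-binding adaptor in receptor endocytosis, fell from 33.7 ± 0.272 to 26.7 ± 1.01 FPKM (SD, n = 3), by 0.35 on the log2 scale (adjusted p = 3.92e-06 by edgeR). ERRFI1, a feedback inhibitor of EGFR and ERBB2, rose from 41.9 to 46.7 FPKM, by 0.14, or by 0.22 with GC adjustment. PTPN2, a tyrosine phosphatase, fell by 0.26, a call lost with replicate block and GC adjustment together (-0.17, adjusted p = 0.0687), and PTPN1, a close relative, was at 37.9 and 37.6 FPKM and not called. STAM2, which sorts receptors at endosomes, and SOCS5, an inhibitor of EGFR signalling, were at -0.18 and -0.16, and both calls were lost with GC adjustment (adjusted p = 0.125 and 0.147). HGS, a partner of STAM proteins in endosomal sorting, was called higher at 0.11 (adjusted p = 0.0364 by edgeR) but lower with GC adjustment at -0.15 (adjusted p = 0.00727), and its uncorrected call ended when any of 3 libraries was omitted (adjusted p from 0.0637 to 0.156).

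Sheddases and co-receptors had 3 of 12 tested genes higher, 2 lower and 7 not called, with a median of -0.02. Here too the share called, 41.7%, was near the 39.2% of all genes tested. GPC1, a heparan sulfate co-receptor of FGF ligands, rose from 26.7 ± 0.869 to 36.9 ± 0.955 FPKM (SD, n = 3), by 0.45 on the log2 scale, or by 0.09 with GC adjustment (adjusted p = 0.0131). SDC3 rose by 0.30, or by 0.13 with GC adjustment, while SDC1 was at 0.20 and lost its call there (0.01, adjusted p = 0.899). NRP1, a co-receptor of several growth factor receptors, fell by 0.27. CD44, which also binds hyaluronan, fell from 209.6 to 194.1 FPKM. SDC4 was at 180.3 and 175.2 FPKM and was not called, except when shControl 1 was omitted (log2 fold change -0.07, adjusted p = 0.0272 by edgeR).

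**Figure D5:**
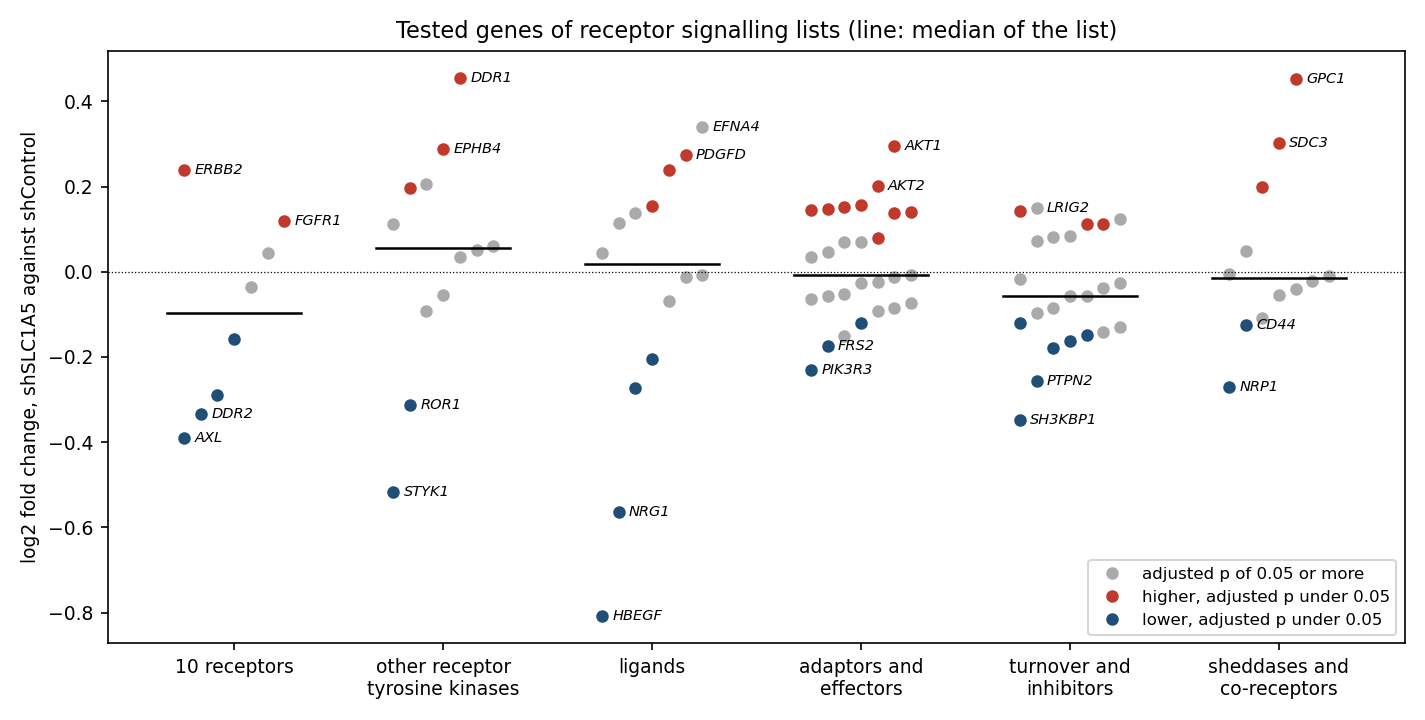
Log2 fold change (vertical axis) of every tested gene of 6 lists: the receptors, other receptor tyrosine kinases, their ligands, adaptors and effectors, turnover genes and inhibitors, and sheddases and co-receptors. Red and blue points passed the test, grey points did not, lines are list medians from -0.10 to 0.06, and HBEGF at -0.81 is the lowest point.

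The genes of these lists whose pattern over the 6 libraries was most like that of AXL were SH3KBP1, NRP1 and PTPN2. Likeness was the root mean square difference of log2 CPM (counts scaled to library size), each gene centred on its own mean, which was 0.0450, 0.0696 and 0.0731 for these among 88 tested genes. For ERBB2 the most similar were WNT5A, EPHB4 and PDGFD, at 0.0341, 0.0525 and 0.0539. AXL and those 3 genes had log2 fold changes of -0.39, -0.35, -0.27 and -0.26, and ERBB2 and its 3 had 0.24, 0.24, 0.29 and 0.27. These likenesses rest on log2 CPM without GC adjustment. With it, ERBB2 and EPHB4 were at 0.08 and 0.06 and not called, while WNT5A and PDGFD were called higher at 0.30 and 0.35. AXL, SH3KBP1, NRP1 and PTPN2 were then at -0.47, -0.32, -0.23 and -0.17, each called lower.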

How the data were processed

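Total RNA of T98G cells was extracted with TRIzol and captured on oligo(dT) beads, per the labels' protocols. The submitters' processing notes name fastp, HISAT2 and StringTie without versions or roles, and the genome build, the strand setting and the treatment of reads with several matches are each not given in the sources used here. The table the authors deposited holds, per its headers, whole-number counts per gene in 6 libraries, treated as raw. Its other values, per the file headers, are FPKM computed by the authors. Each column carries its sample's number, with NC for shControl, and 0 value columns stayed unmapped. GENCODE 29 contains 34674 of the 35750 IDs, 99.97% at a matching GRCh38 position, and the table's coordinates are therefore printed on GRCh38.

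The main test was edgeR 4.0.16 (R 4.3.3; TMM, group as sole term, quasi-likelihood) on the 11841 genes averaging 1 FPKM or more, and p-values were adjusted over all of them by Benjamini-Hochberg (threshold 0.05). The biological coefficient of variation was 0.0982. Standard errors were derived from the log2 fold change and the F statistic. PDGFRA, ROR2 and other genes under the minimum were read from the same fit with at least 1 count in total. The GC-adjusted fit used offsets from a loess (span 0.3) of every library on the longest GENCODE 29 transcript's GC content and length, available for 99.7% of tested genes. Alternatives were DESeq2 1.42.0, limma 3.58.1 on log2(FPKM + 1) and log2(FPKM + 0.1), other scalings and filters, a replicate block, and leaving out libraries singly. Same-group libraries varied 9.82 to 16.7 times more than counting noise, so all 6 were kept as separate libraries. The edgeR, DESeq2 and GC-adjusted edgeR fits were run on simulated counts, and the other steps were not. The simulated counts carried no GC or length trend between libraries, so removal of such a trend was not tested.

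The members and gene lists were chosen with earlier results of these data known. Genes named are the 10 receptors, SLC1A5, up to 4 called genes without overlap and the 2 highest in FPKM per list, ligands of called receptors with a mean of at least 1 FPKM, and the 3 genes most like the tested receptor with the largest rise and that with the largest fall. HGF, the ephrins, COL1A1, COL3A1, ERBB3, ERBB4, HGS and HRAS were named outside this rule, after their values were seen. For COL1A1, COL3A1, ERBB3 and ERBB4 no alternative fits are given. Markers of macrophages, red cells and T cells were also summed: in shSLC1A5 replicate 1 they were at 5.24, 4.73 and 0.288 FPKM, and in the other libraries at most 0.517, 0.297 and 0.184. The red cell sum of shSLC1A5 replicate 1 was nearly all ALAS2, at 4.71 FPKM. The globin genes HBA1 and HBA2 had 0 counts in that library, and HBB was not listed.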

Additional observations from a re-analysis of the deposited data

How the results depend on the processing

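AXL, DDR2, MET and EGFR were called lower under each alternative run for them. The number of all genes called was 4641, and 3077 with GC adjustment, 4470 with a replicate block and 2982 with both. Receptors called higher numbered 2, but 0 with GC adjustment, with or without the block, 0 with a mean of at least 5 FPKM, where ERBB2 and FGFR1 are not tested, 1 with limma on either pseudocount, and 1 to 2 when 1 library was left out. Other receptor tyrosine kinases called higher numbered 3, but 5 with no filter on low values and 1 with GC adjustment, with or without the block. Those called lower numbered 2, but 0 with no filter, 0 with a mean of at least 5 FPKM, 1 with limma on either pseudocount, 1 with GC adjustment, with or without the block, and 0 to 2 when 1 library was left out. Adaptors called higher numbered 9, but 4 with no filter and 2 with GC adjustment, with or without the block, and turnover genes called lower numbered 6, but 3 with block and GC adjustment. Of the 95 tested genes of the 6 lists, 25 had the other sign with GC adjustment, and for 2 of them, HGS and HRAS, a call turned from higher to lower. Among genes named here the sign turned with GC adjustment, without and with the block, for PDGFRB (-0.11 and -0.11), EPHB2 (-0.0734 and -0.0733), GAS6 (-0.177 and -0.177), NRG2 (-0.128 and -0.128), HGS (-0.152 and -0.152), HRAS (-0.164 and -0.166), MIEN1 (-0.0339 and -0.0348) and EGF (0.0438 and 0.0440). EGF, near 0, was also above it with upper-quartile scaling (0.00265) and with limma (0.00322 and 0.00529). When 1 library was omitted the sign was not fixed for EGF (-0.0735 to 0.0556), EFNA1 (-0.372 to 0.174), EFNA5 (-0.153 to 0.00043) and MIEN1 (-0.0288 to 0.0679), none of them called. Where no value shows it, the cause was not tested. The replicate block was checked by correlating deviations of same-numbered libraries (-0.151, 0.0356 and -0.0343). Differently numbered libraries gave -0.116 to 0.122, so no pairing by number was seen, while a shared culture or day was not tested. Without GC adjustment the block changed a call among the 10 receptors for PDGFRA alone (log2 fold change 0.59, adjusted p = 0.132 by edgeR). With no filter on low values the calls of FGFR1, STYK1, ROR1, FRS2 and STAM2 also ended (adjusted p from 0.0529 to 0.0777 by edgeR). ROR2 had the fewest counts of the 10, 9 to 23 per library, with a log2 interval of -0.75 to 1.76, and 3 libraries a group limit every exact test to p = 0.1.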

Other observations

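Outside the 10 receptors, 4 genes of the receptor and ligand lists under 1 FPKM were called in the edgeR fit without the filter on low values, and they were named after their values were seen. In that fit 10.1% of all 34207 genes were called. That share includes genes at 1 FPKM or more, and the share among genes under 1 FPKM was not computed. The count of these genes is therefore not read as a result. Each of these calls ended with a replicate block (adjusted p from 0.0536 to 0.158) and when any of several libraries was omitted, 4 each for EREG, EPHB3 and KDR and 5 for PROS1 (adjusted p from 0.0509 to 0.145). EREG, a ligand of EGFR, fell from 0.395 to 0.172 FPKM (adjusted p = 0.0326), the same direction as HBEGF. PROS1, a ligand of the AXL family, rose from 0.242 to 0.478 FPKM (adjusted p = 0.0479). EPHB3 rose from 0.366 to 0.651 FPKM (adjusted p = 0.0238), and with GC adjustment its adjusted p was 0.153. KDR, a VEGF receptor of endothelium, had 0, 0 and 4 counts in shControl and 46, 59 and 35 in shSLC1A5 (adjusted p = 0.0220). Beside it, PECAM1 was at 0.0834 and 0.336 FPKM and VWF at 0.0218 and 0.359 FPKM. TIE1, also an endothelial marker, went the other way, at 0.393 and 0.288 FPKM with overlapping groups. The part of endothelial RNA in these values was not tested.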
